A study of Mus musculus with 6 samples.

Results

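Integrin subunits are described here in EMT6, a line of mouse mammary carcinoma cells grown in culture. The 10 genes were taken from the list Itga1, Itga2, Itga3, Itga5, Itga6, Itgav, Itgb1, Itgb3, Itgb4 and Itgb5 by matching their Ensembl identifiers, with no threshold on a measured value but with earlier results of these data known, and all 10 were found among the 53465 genes of the table. In the study, polyadenylated RNA was sequenced from cells kept in vitro for more than 4 weeks at 0.5 μg/ml with either an antibody against PD-L1 (αPD-L1; PTRVITRO, 3 samples) or an isotype control antibody (PVITRO, 3 samples). Tumor cells display PD-L1 to hold T cells in check, and the comparison asked what prolonged antibody exposure in culture, with no host or immune cells, did to the tumor cells. Both groups derive from the same line, no engineered allele is named for either, and PTRVITRO cells were exposed in culture only and not selected in a mouse. The labels do not say whether the samples of a group were separate cultures, and the study treats replicates as technical unless stated, so p-values here measure only the spread between these samples.

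Integrins are transmembrane receptors made of an alpha and a beta chain that join the extracellular matrix to the actin or keratin cytoskeleton. The pairing sets the ligand: some alpha chains read collagens or laminins, whereas others read the Arg-Gly-Asp (RGD) motif of fibronectin, vitronectin and osteopontin. The beta chain carries the cytoplasmic tail on which talin and kindlin act to switch the receptor to its high-affinity state, and Itgb1 serves as partner for most of the alpha chains listed here. In mammary epithelium and in tumors derived from it, integrins are known for anchoring cells to the basement membrane and for guiding survival and migration.

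The 6 samples held 17757341 to 32426739 counts each, of which the 10 genes took 0.159% to 0.17%. A count of 3, used as a floor, corresponded to 0.0925 to 0.169 CPM (counts scaled to library size, with upper-quartile factors), and such floors cover counting error only. Itga1 to Itgb5 were compared between the groups by quasi-likelihood F testing in edgeR, fitted on all 14217 genes that passed a filter on low counts, and a gene was called at an adjusted p below 0.05. The luminal list summed to 1532.3 to 1655.0 CPM in PVITRO and 1619.3 to 1700.2 CPM in PTRVITRO, nearly all of it the keratins Krt8 and Krt18, with Krt18 (479.8 to 505.8 against 523.2 to 567.9 CPM) and Epcam (1.24 to 1.8 against 2.15 to 2.41 CPM) higher in every PTRVITRO sample and Cdh1 at no more than 1 count. The 4 basal markers summed to 53.3 to 55.6 CPM and 43.3 to 54 CPM, with Krt14 lower in every PTRVITRO sample (8.48 to 9.25 against 6.68 to 7.66 CPM) and Krt5 at 0 to 4 counts. The 6 mesenchymal markers, mostly Fn1 and Vim, summed to 8273.2 to 9153.2 CPM and 7584.0 to 8058.7 CPM without overlap. Fn1, the largest part of that sum, and Zeb1 (13.9 to 15.8 against 11.8 to 13.5 CPM) were lower in every PTRVITRO sample. Groups overlapped for Vim (1870.9 to 1916.0 against 1840.4 to 1972.2 CPM), Zeb2 (59.9 to 70.2 against 62.2 to 73.0) and Twist1 (28.7 to 29.4 against 28.3 to 32.3). Cdh2 had 0 to 2 counts. These marker differences are given without a test. The leukocyte markers Ptprc and Adgre1 had a count of 0 in all 6 samples, and the endothelial list (Pecam1, Cdh5 and Kdr) summed to at most 0.257 CPM. In bulk RNA, fewer cells expressing a gene and less of its RNA per cell cannot be told apart.

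None of the integrin subunits was called between PTRVITRO and PVITRO. Of the 10 genes, 9 passed the filter on low counts and 0 of these 9 had an adjusted p below 0.05, against 0.246% of all genes tested (35 genes, 14 higher and 21 lower in PTRVITRO; lower calls alone were 0.148%); DESeq2 and limma-voom also called 0 of the 9. At an unadjusted p below 0.05 there were 3 of 9, Itgb5 and Itga5 with lower and Itgb3 with higher values in PTRVITRO, against 11.4% of all genes tested, and the same 3 genes were those whose groups did not overlap, against 17.6% of all genes tested. The median log2 fold change of the 9 genes was -0.04, with 4 positive and 5 negative values, and that of all genes tested was -0.004. For 8 of the 9 genes the 95% interval lay between -0.22 and 0.40 on the log2 scale; the exception was the sparsely counted Itga1.

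The subunits spanned a wide range of levels, and Itgb1 and Itgb5 stood at the top. Levels were compared between genes as CPM per kilobase of merged exons, averaged over the 6 samples. On this scale Itgb1 had 179.1, Itgb5 95.3 and Itga3 37.1, followed by Itga5 at 19.3, Itgav at 14.4, Itgb4 at 9.69, Itga6 at 4.49 and Itgb3 at 2.0. The collagen receptor chains Itga1 and Itga2 were lowest, at 0.0871 and 0.0464. Across the 6 samples, each gene's range lay clear of the next in this order, except that Itga1 (0.0531 to 0.109) and Itga2 (0.0328 to 0.0812) overlapped. When the longest annotated transcript was used as the length instead, Itgav (22) stood above Itga5 (21.6) and the rest of the order was the same. Itgb1 exceeded 97.6% of all tested genes in level per kilobase and Itgb5 exceeded 95.5%, whereas Itgb3 exceeded 29.6% and Itga1 1.01%.

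**Figure D1:**
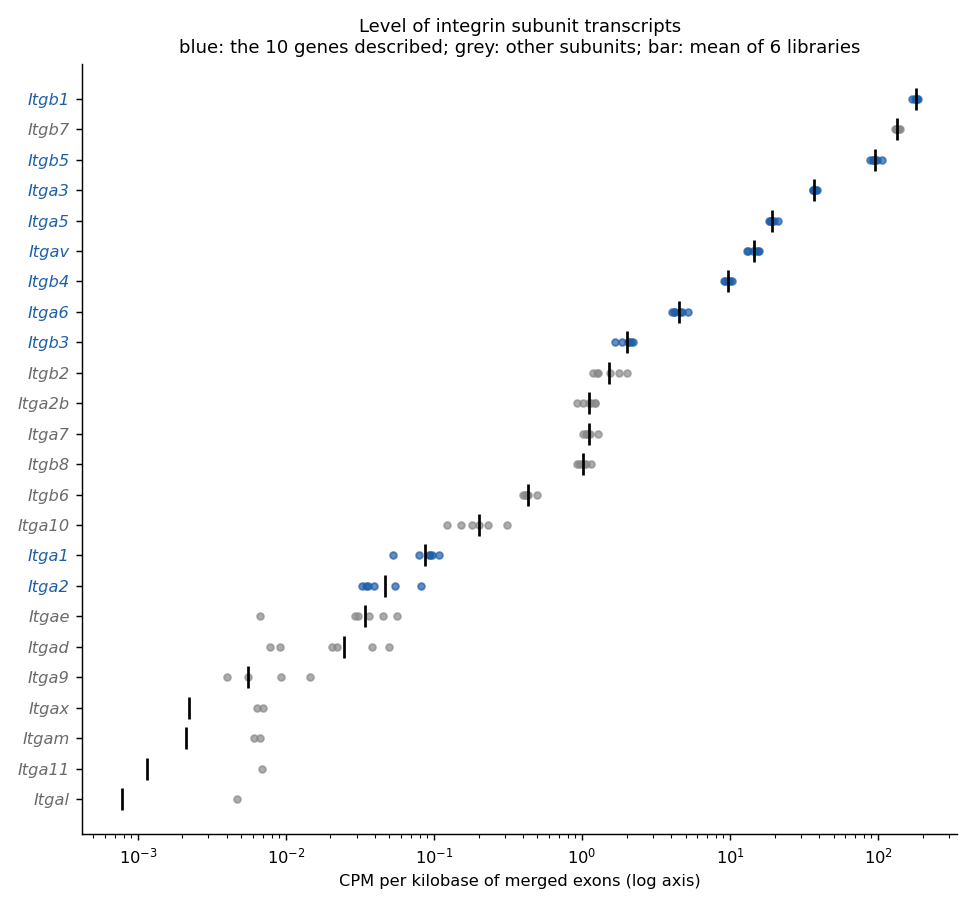
Level of each integrin subunit in 6 samples, as CPM per kilobase of merged exons on a log axis; points are samples, black bars are means, and blue marks the 10 genes described. Samples at 0 cannot be drawn on a log axis and the subunits at 0 in all samples are left out; Itgb1 (mean 179.1) is at the top, and Itga1 and Itga2 are below 0.11.

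Promoter windows illustrate the top and bottom of this order: they are shown for Itgb1, the subunit with the highest level, Itgb5, the second highest and the one with the smallest p, and Itga2, the lowest. Each is the 250 bases before the annotated start in RefSeq (GRCm38.p6), written 5′ to 3′ on the gene's strand with CpG dinucleotides in capitals. Itgb1 lies at chr8:128685404-128685653 on the plus strand, Itgb5 at chr16:33829415-33829664 on the plus strand and Itga2 at chr13:114932101-114932350 on the minus strand.
Itgb1: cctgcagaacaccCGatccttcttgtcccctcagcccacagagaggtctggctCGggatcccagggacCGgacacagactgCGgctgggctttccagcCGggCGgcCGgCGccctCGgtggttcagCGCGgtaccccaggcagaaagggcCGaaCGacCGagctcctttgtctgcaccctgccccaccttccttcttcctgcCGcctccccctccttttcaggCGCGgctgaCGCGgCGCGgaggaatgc
Itgb5: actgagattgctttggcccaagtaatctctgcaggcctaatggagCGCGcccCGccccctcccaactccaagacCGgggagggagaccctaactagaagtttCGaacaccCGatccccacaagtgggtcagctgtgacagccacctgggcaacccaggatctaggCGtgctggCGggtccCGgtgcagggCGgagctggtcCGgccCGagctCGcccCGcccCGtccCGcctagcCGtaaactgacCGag
Itga2: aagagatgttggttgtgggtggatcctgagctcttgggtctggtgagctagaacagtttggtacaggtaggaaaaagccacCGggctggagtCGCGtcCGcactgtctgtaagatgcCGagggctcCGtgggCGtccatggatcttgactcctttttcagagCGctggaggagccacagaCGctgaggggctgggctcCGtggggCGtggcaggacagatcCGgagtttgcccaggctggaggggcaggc
These windows held 21, 18 and 12 CpG dinucleotides for Itgb1, Itgb5 and Itga2, against a median of 6 (quartiles 2 and 16) over 32851 windows of the same length. Of the 10 genes, 7 had an entry: Itgav had 18 CpG, Itga5 11 and Itga1 10, and Itga3 had 22 before one start and 5 before another; Itga6, Itgb3 and Itgb4 had no entry. The GC-box letters GGGCGG, searched on both strands, occurred 3 times in the Itgb5 window, 1 time in that of Itgb1 and 0 times in that of Itga2, and 32.7% of all windows held them at least 1 time. The letters TATAAA, searched on both strands, were in none of the members' windows and in 12.4% of all windows. These counts describe the letters only.

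Among the collagen receptor chains, both had low levels, Itga1 with 28 to 58 counts a sample and Itga2 with 5 to 14. Itga1, an alpha chain that reads collagens in a pair with Itgb1 (chr13:114953096-115101964, minus strand; GRCm38), had 1.71, 1.47 and 1.74 CPM in the PVITRO samples and 1.79, 0.988 and 2.02 CPM in the PTRVITRO samples. The PTRVITRO samples included both the lowest and the highest value, so the groups overlapped. The log2 fold change of Itga1 was -0.06 (SE 0.26, 95% interval -0.63 to 0.52, adjusted p = 0.96 in edgeR), an interval that spans a change of 0.644-fold to 1.44-fold. A shorter gene model on the same strand, Gm49395, shares 451 bases with Itga1 at 100% identity. Pelo lies within the span of Itga1 on that strand and Gm10734 overlaps it in antisense, so a share of the Itga1 counts is uncertain.

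Itga2, the other collagen-binding partner of Itgb1 (chr13:114833081-114932100, minus strand), had 6, 7 and 14 counts in PVITRO and 8, 11 and 5 counts in PTRVITRO. These correspond to 0.257, 0.234 and 0.579 CPM and to 0.247, 0.388 and 0.281 CPM, all above the floor of 3 counts. The groups overlapped, and Itga2 did not pass the filter on low counts. A fit without that filter gave a log2 fold change of -0.20 with an adjusted p of 0.925 (edgeR), and no difference was detectable at this depth.

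Among the laminin receptor chains, Itga3 had the highest level and a log2 fold change closest to 0. Itga3, which pairs with Itgb1 to read laminins of the basement membrane (chr11:95044474-95076801, minus strand), had 207.7, 220.4 and 205.9 CPM in PVITRO and 211.5, 209.8 and 216.1 CPM in PTRVITRO. All PTRVITRO values fell inside the PVITRO range. Its log2 fold change was 0.01 (SE 0.04, 95% interval -0.08 to 0.09, adjusted p = 0.967 in edgeR), so a change of Itga3 by more than 1.06-fold either way lay outside the interval.

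Itga6, the laminin-binding chain that pairs with either Itgb1 or Itgb4 (chr2:71745616-71858416, plus strand), had 36.5, 42.5 and 38.5 CPM in PVITRO and 37.7, 41.4 and 46.7 CPM in PTRVITRO. The third PTRVITRO sample was the highest of the 6 and the remaining PTRVITRO values lay among those of PVITRO. Its log2 fold change was 0.08 (SE 0.08, 95% interval -0.09 to 0.26, adjusted p = 0.731 in edgeR), and it ran from 0.0126 to 0.1599 when 1 sample was left out. Gm29397, a gene model on chromosome 9 that shares 326 bases with Itga6 at 100% identity, was counted at 0.496 to 1.01 CPM. Gm13662 and Gm13663 overlap Itga6 on the same strand.

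Itgb4, which pairs with Itga6 alone and anchors it to keratin filaments in hemidesmosomes (chr11:115974709-116008412, plus strand), had 64.3, 72.8 and 69.5 CPM in PVITRO and 68.1, 68.0 and 65.1 CPM in PTRVITRO. The PVITRO samples held both the lowest and the highest value of Itgb4. Its log2 fold change was -0.04 (SE 0.05, 95% interval -0.15 to 0.07, adjusted p = 0.827 in edgeR). The antisense gene B230344G16Rik overlaps Itgb4, and Gm13739 and Gm17250 overlap Itga6 in antisense; whether the strand of the reads was used in counting is not stated, so reads of such partners cannot be told apart here.

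The receptors that read RGD ligands held all 3 subunits with separate groups. Itga5, which forms the main fibronectin receptor with Itgb1 (chr15:103344286-103366763, minus strand), had 97.3, 103.3 and 95.4 CPM in PVITRO and 92.8, 92.1 and 90.9 CPM in PTRVITRO. Every PTRVITRO value lay below every PVITRO value, and the gap between the groups was 92.8 to 95.4 CPM. Its log2 fold change was -0.10 (SE 0.04, 95% interval -0.19 to -0.01, adjusted p = 0.38 in edgeR).

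Itgav, the alpha chain shared by the vitronectin-type receptors (chr2:83724397-83806916, plus strand), had 140.6, 165.9 and 153.3 CPM in PVITRO and 142.1, 160.2 and 168.0 CPM in PTRVITRO. Both groups ran from about the same low to about the same high value and overlapped almost entirely. Its log2 fold change was 0.03 (SE 0.07, 95% interval -0.12 to 0.18, adjusted p = 0.918 in edgeR). The antisense genes Gm13684 and Dnmt3l-ps1 overlap Itgav.

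Itgb3, a partner of Itgav and, in platelets, of Itga2b (chr11:104608000-104670476, plus strand), had 12, 9.91 and 11 CPM in PVITRO and 12.6, 13.0 and 12.2 CPM in PTRVITRO. Every PTRVITRO value lay above every PVITRO value, with the nearest pair at 12 and 12.2 CPM. The log2 fold change of Itgb3 was 0.21 (SE 0.09, 95% interval 0.02 to 0.40, adjusted p = 0.39 in edgeR), the largest in size among the 9 genes.

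Itgb5, which pairs with Itgav to bind vitronectin (chr16:33829665-33949338, plus strand), had 375.9, 337.6 and 348.2 CPM in PVITRO and 328.0, 327.1 and 314.7 CPM in PTRVITRO. All PTRVITRO values lay below those of PVITRO, and the first PVITRO sample was the highest of the 6. Its mean was 353.9 ± 19.7 CPM in PVITRO and 323.2 ± 7.44 CPM in PTRVITRO (SD, n = 3). The log2 fold change of Itgb5 was -0.13 (SE 0.04, 95% interval -0.22 to -0.04), with an adjusted p of 0.273 in edgeR, the smallest among the 9 genes. A short gene model on chromosome 3, Gm38317, shares 343 bases with Itgb5 at 99.7% identity and was counted at 13.0 to 18.8 CPM. With the counts of both summed, the Itgb5 values were 371.6 ± 20.1 CPM in PVITRO and 339.5 ± 10.3 CPM in PTRVITRO (SD, n = 3; two-sided exact permutation p = 0.1, the smallest that 3 against 3 allows), and the groups still did not overlap.

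Itgb1, the common partner of the collagen, laminin and fibronectin chains above (chr8:128685654-128733200, plus strand), was the most abundant of the 10 subunits. It had 732.4, 750.1 and 754.4 CPM in PVITRO and 692.3, 721.9 and 733.2 CPM in PTRVITRO. The groups met only where the highest PTRVITRO value passed the lowest PVITRO value. The log2 fold change of Itgb1 was -0.06 (SE 0.03, 95% interval -0.13 to 0.01, adjusted p = 0.536 in edgeR).

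**Figure D2:**
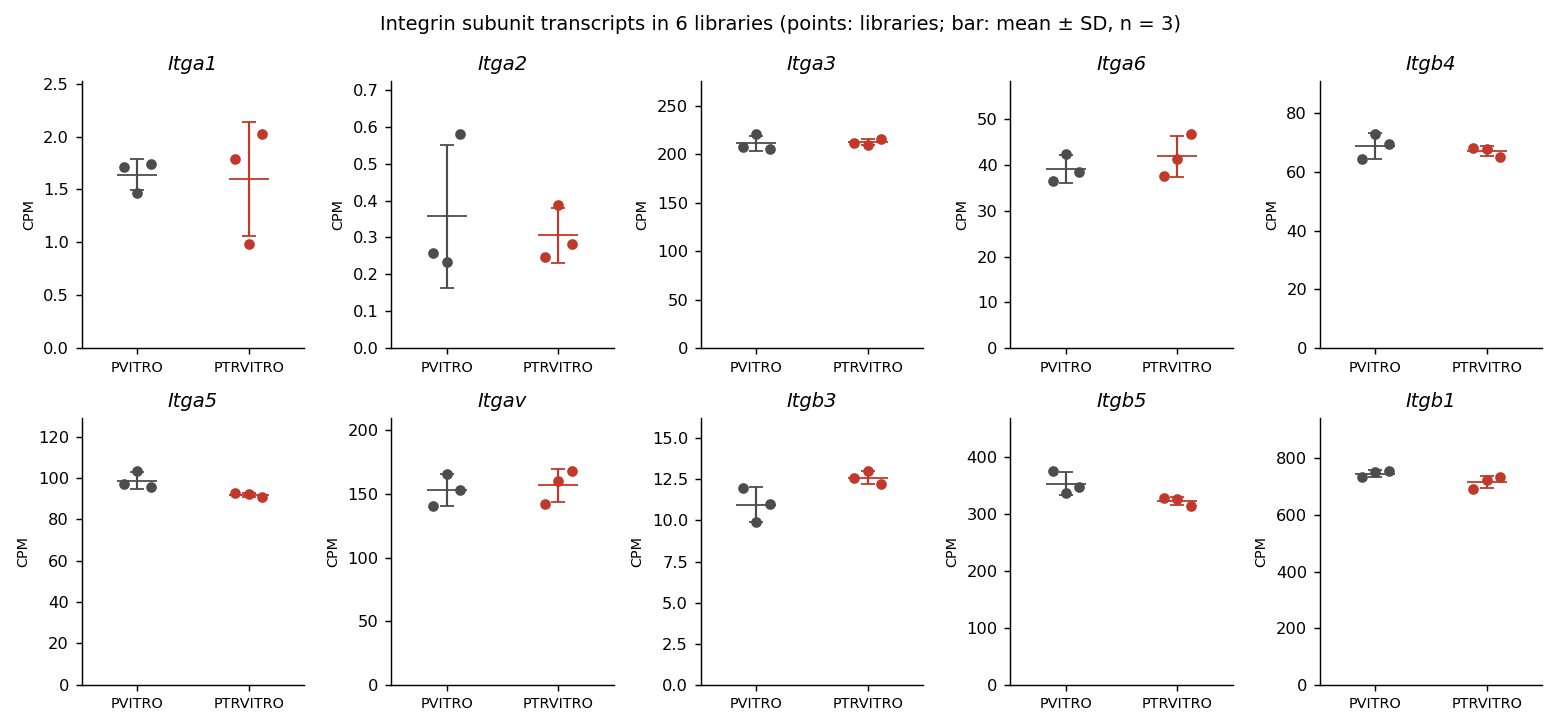
CPM of each of the 10 integrin subunits in the 3 PVITRO (grey) and 3 PTRVITRO (red) samples, with mean ± SD, each panel starting at 0. The groups are separate for Itga5, Itgb3 and Itgb5 and overlap for the other 7 genes.

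**Figure D3:**
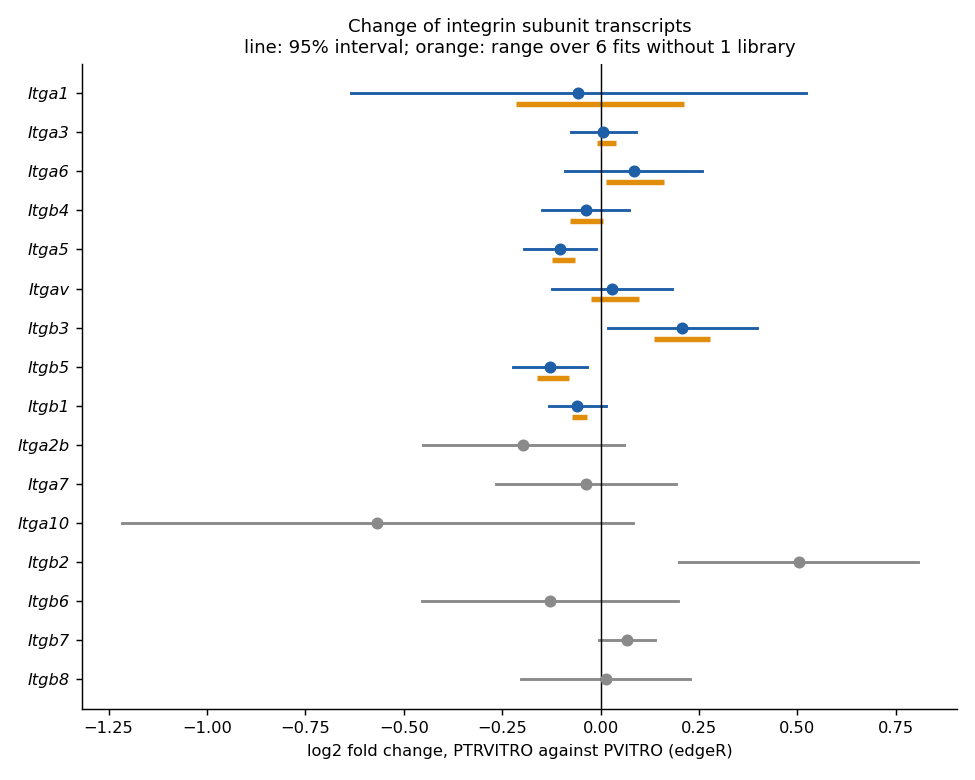
Log2 fold change (edgeR, PTRVITRO against PVITRO) with its 95% interval for the 9 tested integrin subunits (blue) and 7 other tested subunits (grey); orange bars give the range over 6 fits that each leave out 1 sample. The intervals of Itga5, Itgb3, Itgb5 and Itgb2 do not cross 0, and no adjusted p is below 0.05.

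By ligand class, the summed levels of the chains were close in both groups for laminin and collagen receptors and lower in PTRVITRO for the RGD class. The laminin chains (Itga3, Itga6 and Itgb4) summed to 51.2 ± 2.2 CPM per kilobase in PVITRO and 51.4 ± 0.766 in PTRVITRO (SD, n = 3). The collagen chains (Itga1 and Itga2) summed to 0.138 ± 0.0326 and 0.129 ± 0.0203. The RGD class (Itga5, Itgav, Itgb3 and Itgb5) summed to 140.6, 133.1 and 133.5 CPM per kilobase in PVITRO and to 126.5, 127.8 and 124.7 in PTRVITRO. All PTRVITRO sums lay below those of PVITRO, and most of each sum was Itgb5. These sums are given as a description, with no test.

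Itgb1 made up 62.2 ± 1.42% of the summed level of the 4 beta chains in PVITRO and 63.1 ± 1.15% in PTRVITRO (SD, n = 3). Itgb5 made up 33.9 ± 1.6% and 32.7 ± 1.02%, Itgb4 3.34 ± 0.238% and 3.44 ± 0.115%, and Itgb3 0.633 ± 0.0539% and 0.769 ± 0.0234%. Among the 6 alpha chains, Itga3 alone held 48.9 ± 0.633% of the summed level in PVITRO and 49.5 ± 0.858% in PTRVITRO. RNA shares say nothing of how many pairs reach the surface.

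Ratios between partner chains were compared within samples, which removes the scaling between libraries. The ratio of Itgb3 to Itgb5, the alternative beta partners of Itgav, was 0.0192, 0.0177 and 0.0191 in PVITRO and 0.0232, 0.0238 and 0.0234 in PTRVITRO. All PTRVITRO ratios of Itgb3 to Itgb5 were above all PVITRO ratios, with a log2 difference of 0.33 (two-sided exact permutation p = 0.1, the smallest possible; 0.4 after adjustment over the 4 ratios tested). The ratio of Itgb4 to Itga6 was 2.26 ± 0.058 in PVITRO and 2.08 ± 0.269 in PTRVITRO, with overlapping groups and an exact permutation p of 0.4. The third PTRVITRO sample, in which Itga6 was highest, had the lowest ratio of Itgb4 to Itga6, at 1.79. The size of this ratio depended on the length used. With the longest annotated transcript as the length, its mean over all samples was 1.17, against 0.0199 for Itgb3 to Itgb5.

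The ratio of Itgb1 to the sum of its alpha partners was 2.41 ± 0.0993 in PVITRO and 2.33 ± 0.0235 in PTRVITRO (exact permutation p = 0.4). The ratio of Itga2 to Itga1 scattered from 0.36 to 1.02 within PTRVITRO and from 0.391 to 0.869 within PVITRO (exact permutation p = 1.0), as counts this low allow. With the longest annotated transcript as the length, the means over all samples were 1.98 for Itgb1 to its alpha partners and 0.337 for Itga2 to Itga1. With 4 ratios and 3 samples a group, no ratio could reach an exact p below 0.1.

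**Figure D4:**
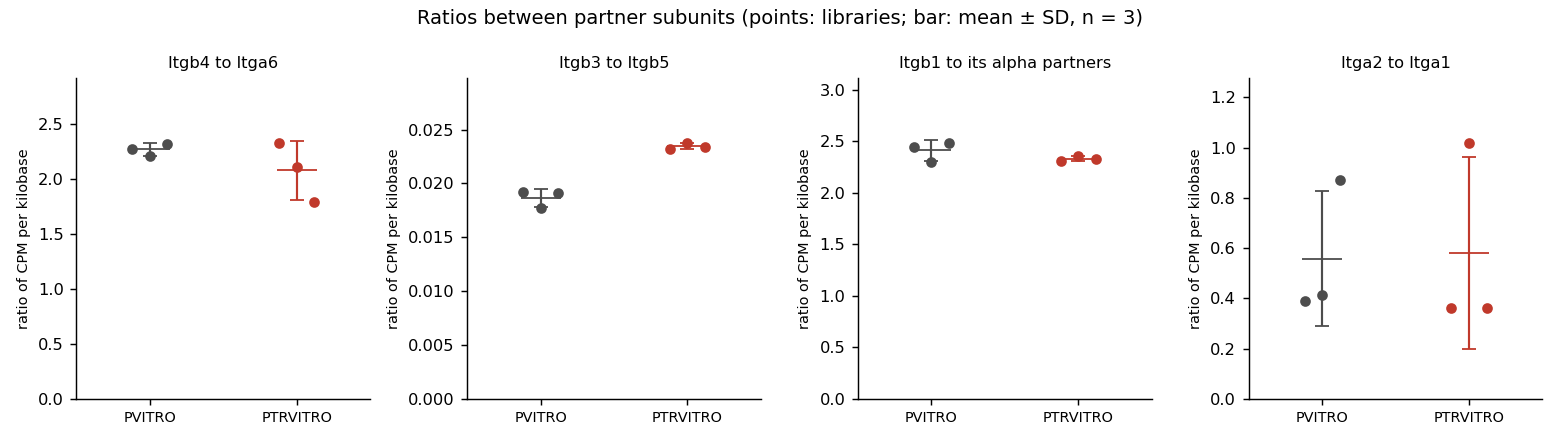
Ratios of CPM per kilobase between partner subunits in the 3 PVITRO and 3 PTRVITRO samples, with mean ± SD. The ratio of Itgb3 to Itgb5 is 0.0187 ± 0.000849 in PVITRO and 0.0235 ± 0.000321 in PTRVITRO with separate groups, while the other ratios overlap.

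Beyond the 10 genes, the mouse integrin family has 17 further subunits, of which 7 passed the filter and 0 were called by edgeR, DESeq2 or limma-voom (0.246% of all genes in edgeR), with 1 at an unadjusted p below 0.05 (11.4% of all genes) and 2, Itgb7 and Itgb2, with separate groups (17.6%). Itgb7, a beta chain known from lymphocytes that pairs with Itga4 or Itgae, was nonetheless the second most abundant subunit of all, at 134.9 CPM per kilobase, above 96.9% of all tested genes and between Itgb1 and Itgb5. It had 358.9, 370.7 and 365.1 CPM in PVITRO and 374.1, 383.2 and 390.2 CPM in PTRVITRO, with separate groups, a log2 fold change of 0.07 and an adjusted p of 0.465 (edgeR). Its alpha partners were at or near 0: Itga4 had a count of 0 in all 6 samples and Itgae had 1 to 6 counts. The 10 genes held 73.0 ± 0.27% of the summed level of all 27 subunits in PVITRO and 71.1 ± 0.185% in PTRVITRO, and Itgb7 held 26 ± 0.301% and 27.8 ± 0.171% (SD, n = 3).

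Itgb2, the beta chain of leukocyte integrins, had 3.94, 3.64 and 3.85 CPM in PVITRO and 5.4, 4.73 and 6.17 CPM in PTRVITRO, with separate groups. Its log2 fold change was 0.50 (SE 0.14, adjusted p = 0.195 in edgeR), and with no filter on low counts its adjusted p was 0.0485. Of the 7 leukocyte markers, 5 had a mean of at most 3 counts, Ptprc and Adgre1 among them at 0, and the summed level of the list, mostly Itgb2 itself, ran from 4.24 to 4.62 CPM in PVITRO and from 5.19 to 6.51 CPM in PTRVITRO. Lyz2, the only other leukocyte marker above that count, had lower values in PTRVITRO (0.337 to 0.459 CPM) than in PVITRO (0.534 to 0.642 CPM).

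The remaining tested subunits were low. Itga2b, the platelet partner of Itgb3, had 6.49 ± 0.321 CPM in PVITRO and 5.63 ± 0.64 in PTRVITRO (adjusted p = 0.564 in edgeR), with the platelet genes Pf4 and Gp9 at no more than 0.385 CPM. Itgb6 and Itgb8, further partners of Itgav that bind latent TGF-β, had log2 fold changes of -0.13 (adjusted p = 0.789) and 0.01 (adjusted p = 0.973), Itga7, a laminin-binding chain, had -0.04 (adjusted p = 0.928) and Itga10, a collagen-binding chain, -0.57 (adjusted p = 0.506), all in edgeR.

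The genes that activate integrins and link them to actin were likewise not called. Of 42 listed genes 41 were tested and 0 were called by edgeR, DESeq2 or limma-voom (0.246% of all genes tested), 3 had an unadjusted p below 0.05 (11.4%) and 6 had separate groups (17.6%), with a median log2 fold change of 0.01. Cd151, a tetraspanin that binds laminin-reading integrins such as Itga3 and Itga6, had 82.0, 77.4 and 74.6 CPM in PVITRO and 92.2, 87.6 and 83.2 CPM in PTRVITRO. All PTRVITRO values of Cd151 were the higher ones, with a log2 fold change of 0.17 and an adjusted p of 0.22 (edgeR), which was 0.0491 with no filter on low counts. Rap1b, a small GTPase that brings talin to beta tails, had means of 346.2 ± 7.51 and 374.0 ± 14.7 CPM (0.11 on the log2 scale, adjusted p = 0.29), and its paralog Rap1a 163.0 ± 3.68 and 171.3 ± 0.387 CPM (0.07, adjusted p = 0.463), both with separate groups (edgeR).

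In the other direction, the scaffold Bcar1 had 113.9 ± 8.99 CPM in PVITRO and 102.1 ± 2.8 CPM in PTRVITRO (log2 fold change -0.16, adjusted p = 0.292). For Fermt2, the kindlin of adherent cells, the log2 fold change was -0.07 (adjusted p = 0.521) and for Tns1, a tensin that binds beta tails, it was -0.13 (adjusted p = 0.535, all edgeR). The highest levels of the list were those of Cav1 (208.1 CPM per kilobase), Flna (175.2) and Cd9 (133.9), a caveolar coat protein, an actin cross-linker that binds beta tails and a tetraspanin, and their log2 fold changes were 0.03, 0.05 and 0.08.

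Calls appeared among the ligands instead, and all were lower in PTRVITRO. Of 38 listed ligand genes 30 were tested and 3 were called, all lower (0.148% of all genes tested were called lower), 13 had an unadjusted p below 0.05, all with lower values (11.4% of all genes tested in either direction), and the same number had separate groups (17.6%); the median log2 fold change was -0.13. The list was written with earlier results of these data known, so its direction is no independent evidence. The summed mesenchymal markers were lower in every PTRVITRO sample as given above, but most of that sum is Fn1, itself a listed ligand. The sum is therefore not independent of the ligand values. Vim, Zeb2 and Twist1 overlapped between the groups, and the part of these markers in the ligand values was not tested. Ccn1, a matricellular protein read by Itgav and Itga6 receptors, fell from 1146.9 ± 61.9 to 818.8 ± 55.8 CPM (SD, n = 3; log2 fold change -0.49, SE 0.05, adjusted p = 0.00529 in edgeR). Col3a1, a fibrillar collagen, fell from 13.4 ± 2.33 to 5.96 ± 1.35 CPM (-1.13, SE 0.16, adjusted p = 0.0196), and Col6a2, a chain of the microfibrillar collagen, fell from 19.4 ± 2.68 to 11.8 ± 0.61 CPM (-0.70, SE 0.10, adjusted p = 0.0196).

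Of these, Ccn1 was called in all 13 alternative settings, with an adjusted p of 0.000341 to 0.0484 (edgeR) when 1 sample was left out. Col3a1 and Col6a2 were called in 9 of 13 and lost the call when PVITRO sample 1 or 3 or PTRVITRO sample 2 or 3 was left out. Their adjusted p then ran from 0.0643 to 0.156 and their log2 fold changes stayed between -1.11 and -0.61.

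Set beside the receptors, the ligands by class were as follows. The 8 tested collagen genes had a median log2 fold change of -0.26 with 2 called, 6 at an unadjusted p below 0.05 and 6 with separate groups (0.246%, 11.4% and 17.6% of all genes tested), while the collagen chains Itga1 and Itga2 were the lowest of the 10 subunits. The 8 tested laminin genes had a median of 0.03, with 0 called in edgeR, 0 at an unadjusted p below 0.05 and 0 with separate groups, which is near those shares for 8 genes, and Lamb3, a chain of the laminin bound by Itga6 with Itgb4, had 90.3 ± 11.4 and 96.6 ± 7.3 CPM. The 11 tested genes listed as RGD and vitronectin-type ligands had a median of -0.18. Of these, 1 was called, Ccn1, with 5 at an unadjusted p below 0.05 and 5 with separate groups (0.246%, 11.4% and 17.6% of all genes tested). Whether each gene of this class carries the RGD motif was not checked.

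The RGD ligands Spp1 (osteopontin) and Fn1 (fibronectin) were among the most abundant transcripts, at 4906.9 and 535.3 CPM per kilobase. Fn1, the ligand of Itga5 with Itgb1, had 6252.3, 7167.0 and 6514.3 CPM in PVITRO and 5505.5, 6087.9 and 6003.2 CPM in PTRVITRO, with separate groups, a log2 fold change of -0.18 and an adjusted p of 0.208 (edgeR). With no filter on low counts, a setting that called 400 of all genes, the adjusted p of Fn1 was 2.11e-07 (edgeR). It was 0.0348 with the replicate block (edgeR). The other alternatives gave an adjusted p from 0.123 (DESeq2) to 0.432 (edgeR without PTRVITRO sample 2). Spp1 had 8260.0 ± 158.7 and 7913.1 ± 39.1 CPM (-0.06, adjusted p = 0.391 in edgeR), also with separate groups. Vtn (vitronectin) had a count of 0 in all 6 samples. Besides Lamb3, the ligands with the smallest p among those with higher values were Col4a1 (0.30, adjusted p = 0.699) and Npnt, the ligand of the Itga8 receptor (0.26, adjusted p = 0.696), both near 1 CPM, and Itga8 had a count of 0 in all 6 samples.

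**Figure D5:**
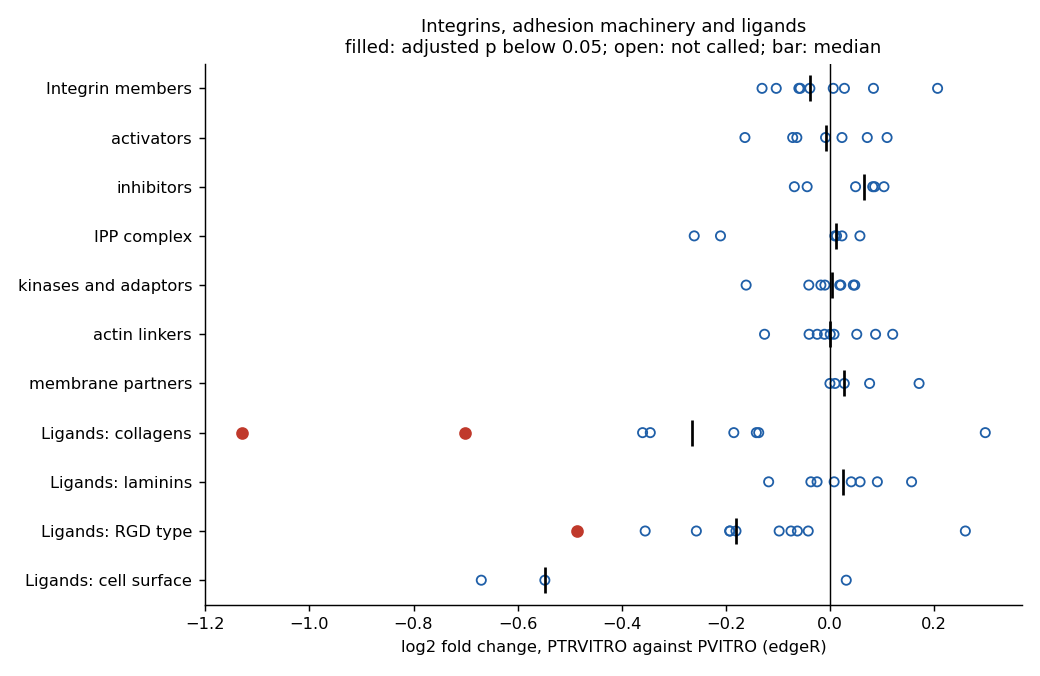
Log2 fold change (edgeR, PTRVITRO against PVITRO) of the 9 tested integrin subunits, of the activation and adhesion genes by role and of the ligand genes by class; each point is a gene, bars are medians, and filled points have an adjusted p below 0.05. The 3 filled points are Col3a1 and Col6a2 among the collagens and Ccn1 in the class labelled RGD type, which lists RGD and vitronectin-type ligands. The integrin subunits lie between -0.13 and 0.21.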

How the data were processed

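RNA-seq libraries from 3 PVITRO and 3 PTRVITRO samples were analysed. The authors made stranded poly(A) libraries, aligned reads to GRCm38 with STAR 2.6.0a and quantified GENCODE release M16 genes with RSEM 1.3.1. The deposited values are RSEM expected counts per gene, not scaled between samples, and 12.462% to 13.802% of the values in a sample were not whole. Whether RSEM was given the read strand is not stated.

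Expected counts were rounded, filtered with filterByExpr (minimum count 10, minimum total 15), scaled by the upper quartile as in the study and compared by quasi-likelihood F testing in edgeR 4.0.16 (R 4.3.3), with the group as sole term and Benjamini-Hochberg adjustment over 14217 genes. The common biological coefficient of variation was 5%. Standard errors were derived from the F statistic. Symbols and exon lengths came from GENCODE release M21 (53360 of 53465 identifiers matched). Ratios were compared by two-sided exact permutation tests (scipy 1.17.1; 20 arrangements). Transcripts sharing at least 200 bases at 95% identity with a member were found with BLAST, and their counts were summed with the member's as an alternative added after seeing the data. Steps were tested on simulated data.

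Named were all 10 members, other integrin subunits that passed the filter and, of the adhesion and ligand lists, each called gene, the 3 with the smallest p in each direction and the 3 with the highest level per kilobase; other genes named were chosen after their values were seen or are markers. The members and lists were chosen with earlier results of these data known. The alternatives were TMM, no scaling factor, DESeq2 1.42.0, limma-voom (limma 3.58.1), no filter, a minimum of 10 counts per sample, a replicate block, and leaving out each sample in turn.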

Additional observations from a re-analysis of the deposited data

How the results depend on the processing

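Of the 9 integrin subunits tested, 0 were called in any of the 13 alternatives, nor was Itga2 in the 3 that fitted it (adjusted p = 0.881 to 0.958 in edgeR), and the log2 fold changes of the 9 kept their sign in the alternatives that keep all 6 samples. At an unadjusted p below 0.05 were Itgb5 in 11, Itgb3 in 8 and Itga5 in 6 of the 13; their lowest adjusted p was 0.104, 0.339 and 0.281. Leaving out 1 sample turned the sign of Itga1 (-0.2146 to 0.2108), Itga3 (-0.0097 to 0.0393), Itgav (-0.0242 to 0.0973), Itgb4 (-0.0792 to 0.0058), Itga7 (-0.1039 to 0.0719), Itgb8 (-0.0951 to 0.0883) and Cav1 (-0.0066 to 0.0824). The other tested members kept their sign, with log2 fold changes of 0.0126 to 0.1599 for Itga6, -0.1619 to -0.0795 for Itgb5, 0.1355 to 0.2788 for Itgb3, -0.1245 to -0.0664 for Itga5 and -0.0724 to -0.0342 for Itgb1. The log2 difference in the ratio of Itga2 to Itga1 (-0.03 with all samples) ran from -0.5283 to 0.3432 in those fits and the difference was 0.02369 on the linear scale. The median of all genes moved between -0.01 and 0.01.

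Deviations of same-numbered samples from their group means had correlations of 0.109, 0.095 and -0.0556, and whether the numbers pair the samples was not tested. With the replicate block 0 of the 9 subunits, 7 ligand genes (Fn1 among them, adjusted p = 0.0348 in edgeR) and 68 of all genes were called. Without a filter on low counts, 1 other integrin subunit (Itgb2), 1 adhesion gene (Cd151), 9 ligand genes and 400 of all genes were called. DESeq2 called 6 ligand genes and 111 of all genes, and the filter of 10 counts in every sample gave 54. Leaving out 1 sample gave 1 to 5 ligand genes and 8 to 64 of all genes. The cause of these shifts was not tested. Counts were lowest for Itga1 and Itga2, at 5 to 58 per sample.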

Other observations

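Several ligand genes did not pass the threshold in the main edgeR fit but had values close to it, or separate groups, and are named here after their values were seen. Col6a1, the partner chain of Col6a2, had 64.2 ± 3.98 CPM in PVITRO and 49.8 ± 4.05 CPM in PTRVITRO (SD, n = 3; -0.36 on the log2 scale, adjusted p = 0.0515 in edgeR). Thbs1, a matricellular ligand of integrins, had 619.4 ± 48.1 and 518.8 ± 18.4 CPM (-0.26, adjusted p = 0.0888). The chains of collagen I, Col1a1 and Col1a2, had log2 fold changes of -0.18 and -0.14 with adjusted p of 0.155 and 0.14, both with separate groups. In other settings some of these were called: Col6a1 with TMM, DESeq2, no filter, a minimum of 10 counts per sample, the replicate block, and without PVITRO sample 2 or PTRVITRO sample 1. Thbs1 and Col1a1 were called with DESeq2, no filter and the replicate block, Col1a1 also without PTRVITRO sample 1, and Col1a2 with no filter only. Of the cell-surface ligands read by leukocyte integrins, Icam1 had 1.64 ± 0.268 and 1.12 ± 0.135 CPM (-0.55, adjusted p = 0.373) and Icam2 1.28 ± 0.235 and 0.821 ± 0.125 CPM (-0.67, adjusted p = 0.329; edgeR), whereas Vcam1, a ligand of Itga4 receptors, had 20.4 ± 1.21 and 21 ± 0.911 CPM (0.03, adjusted p = 0.9).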
